A study of Rattus norvegicus with 6 samples.

Results

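The solute carriers that move amino acids, peptides and amine or amino acid neurotransmitters across membranes were compared between tolerated allogeneic and syngeneic rat kidney transplants. The members were all genes with a probe of a single platform symbol starting with Slc1a, Slc3a, Slc6a, Slc7a, Slc15a, Slc17a, Slc18a, Slc32a, Slc36a, Slc38a or Slc43a. Where a gene had several probes, the probe with the highest mean log2 level over the 6 arrays stood for it. The rule found 51 genes on 53 probes, out of 5990 genes with a single symbol on the array, and the rule itself uses no difference between the groups. No Slc43a gene had a named probe. Slc6a19, Slc6a12 and Slc7a11, which belong to the same families, had no named probe and were not analysed here.

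Total RNA from sections of the transplanted kidney was hybridised at day 100 to the Applied Biosystems rat genome survey array, a 1-colour chemiluminescent array, with 1 array per sample. The tolerated group held 3 kidneys of LEW.1W rats (MHC haplotype RT1u, 8 to 12 weeks old) placed in LEW.1A recipients (RT1a) that received anti-donor anti-class II antibodies. The syngeneic group held 3 LEW.1A kidneys placed in LEW.1A recipients, for which no antibody is named. The protocol describes removal of both native kidneys 7 days after life-sustaining allotransplantation. The haplotype of the donor, the MHC mismatch and the antibodies were never varied one without the others, so they cannot be told apart. The labels number the samples of each group 1 to 3 without saying that they came from separate animals, so the p-values reflect sample-to-sample spread that may be technical.

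In the kidney, filtered amino acids and small peptides are taken back from the urine by carriers in the brush border of the proximal tubule, and leave the cell through exchangers and facilitators in the basolateral membrane. Many of these carriers are pairs of a heavy subunit, Slc3a1 or Slc3a2, and a light subunit of the Slc7 family that carries the substrate. Glutamine entering the proximal tubule from the blood feeds ammonia production, and other members move osmolytes, creatine, urate and organic anions. The neuronal and vesicular members load or clear neurotransmitters and are known mainly from nerve endings and endocrine cells.

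Tolerated grafts had lower levels of many carriers, among them many known from renal amino acid and peptide uptake. Over all tested members the largest decreases were those of Slc7a13, Slc7a12, Slc6a13 and Slc3a1. Of the 51 members, 39 passed a filter on dim probes (mean log2 level over all 6 arrays above 7.76) and were tested. Of these 39, 18 were lower and 5 were higher in tolerated grafts at an adjusted p under 0.05 (limma over all 20142 tested probes, Benjamini-Hochberg, two-sided), and 16 did not pass. For 3 of the 18 (Slc18a1, Slc6a4 and Slc38a5) the tolerated mean lay under the filter level, so they were tested only through their syngeneic levels and are no support for the count. Over all tested probes, 25.2% passed, 12.4% higher and 12.8% lower. Over the 4955 tested genes with a single symbol, 32.7% passed, 15.5% higher and 17.2% lower. The members' share was 46.2% lower and 12.8% higher, so the higher share was at the background. The lower share still counts the 3 genes with a tolerated mean under the filter level. The background shares also keep genes of this kind. The other 104 tested solute carrier genes had a like pattern, with 41.3% lower and 4.81% higher, so a large lower share was common to solute carriers on this array. The members' median log2 change (tolerated minus syngeneic) was -0.78 and ran from -4.95 to 2.24, beside -0.64 for the other solute carriers and -0.02 for all tested probes. The groups did not overlap for 29 of the 39 members (74.4%), for 60.6% of the other solute carriers and for 55.7% of all tested genes with a single symbol. The 29 also include Slc18a1, Slc6a4 and Slc38a5.

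**Figure D1:**
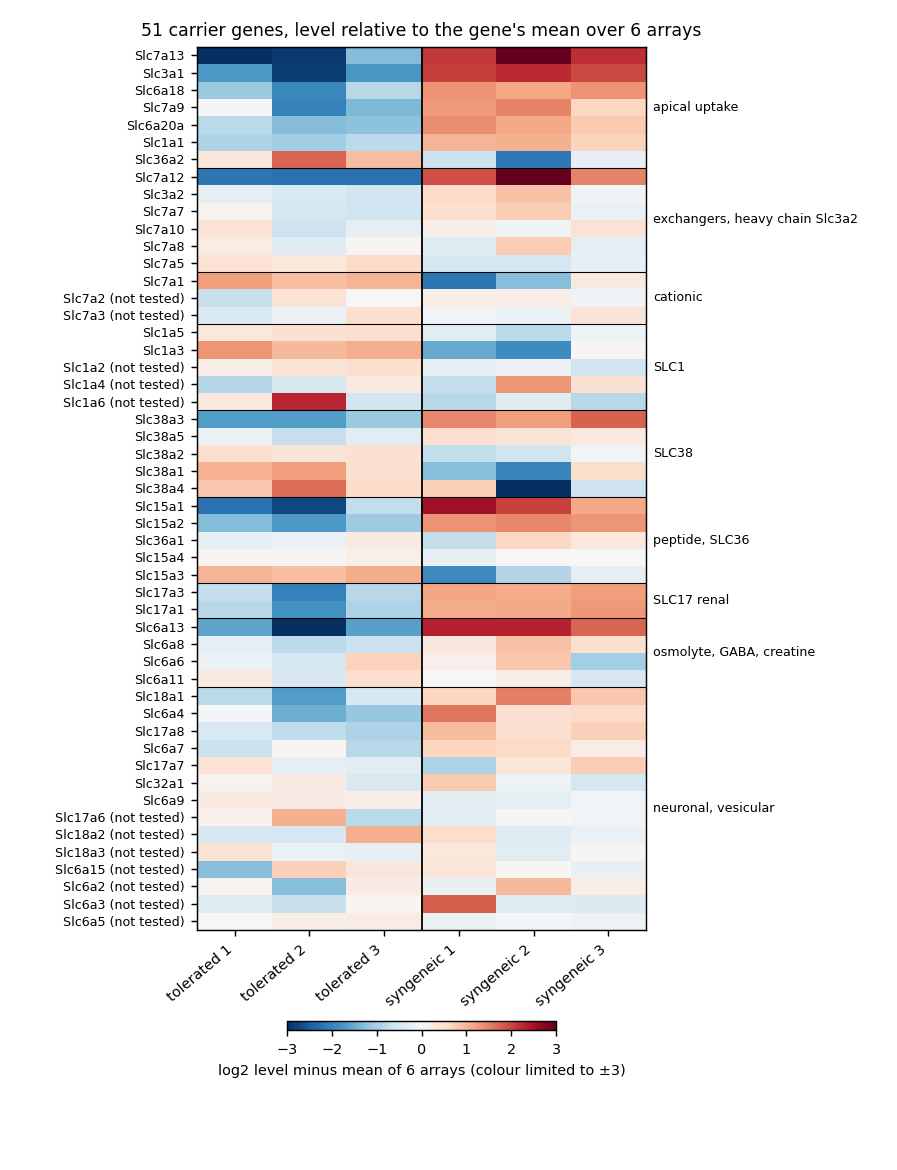
Level of each of the 51 carriers (rows) in each array (columns, tolerated 1 to 3 on the left, syngeneic 1 to 3 on the right) as log2 level minus the gene's mean over the 6 arrays, with colour limited to 3 log2 units either way. Rows are grouped by role. The 18 members lower in tolerated grafts, spread over several groups, are low on the left and high on the right, and the 12 members that were not tested are marked.

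Some lists of cell type markers also differed between the groups, and their part in the carriers' changes was not tested. All 14 proximal tubule markers with a named probe were lower, with a median log2 change of -2.85. Their mean level relative to the 6 arrays lay between -1.90 and -1.44 in tolerated grafts and between 1.26 and 1.79 in syngeneic grafts. Of 11 distal nephron markers 1 was lower (Klk1, -3.51), and the list's median change was -0.37 (-0.18 without tolerated graft 1 and -0.14 without syngeneic graft 3). All 9 macrophage markers were higher, with a median change of 3.04 and relative levels of 1.48 to 1.70 in tolerated grafts against -2.19 to -0.48 in syngeneic grafts. Of 8 T cell markers 5 were higher, with a median change of 2.39 and relative levels of 0.76 to 1.15 in tolerated grafts against -1.86 to -0.22 in syngeneic grafts. None of the T cell markers passed without any 1 of the tolerated arrays or without syngeneic graft 1, and 1 passed without syngeneic graft 2. Of the macrophage markers, 4 passed without tolerated graft 1 and 4 without tolerated graft 3. Of 13 markers of liver cells 5 were lower, with a median change of -2.18. Among these 5, the tolerated mean of Alb (7.03) lay under the filter level, so it was tested only through its syngeneic level. The relative level of the liver markers was 2.49 in syngeneic graft 1, against 0.43 and 0.78 in the other syngeneic grafts. Without syngeneic graft 1 their median change was -1.41. Of 5 endothelial and podocyte markers 1 was lower (Podxl), with a list median of -0.64. With 1 array left out that call held only without syngeneic graft 3, and the median ran from -1.03 (without syngeneic graft 2) to -0.24 (without syngeneic graft 3). In tissue RNA, fewer cells of a type and less RNA per cell cannot be told apart.

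The carriers' levels also differed between arrays of a group. The 18 lower members had mean relative levels of -1.12, -1.82 and -1.07 in tolerated grafts 1, 2 and 3, against 1.40, 1.47 and 1.14 in syngeneic grafts. For 15 of the 18, tolerated graft 2 gave the lowest value of its group. It was also the tolerated graft with the lowest proximal tubule marker level. The 5 higher members had mean relative levels of 0.72, 0.61 and 0.75 in tolerated grafts, against -1.01, -0.92 and -0.14 in syngeneic grafts. For all 5, syngeneic graft 3 gave the highest value of its group, and that graft also had the highest macrophage and T cell marker levels of its group. These extremes were not particular to those lists. Among tolerated grafts, liver (-1.60) and endothelial and podocyte markers (-0.54) were also lowest in graft 2. Among syngeneic grafts, distal nephron (0.28), endothelial and podocyte (0.65) and nerve markers (0.14) were also highest in graft 3. Some lists had other extremes, such as the highest liver markers in syngeneic graft 1. Distal nephron markers were lowest in tolerated graft 1 (-0.66, against -0.11 and 0.10 in the other tolerated grafts).

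**Figure D2:**
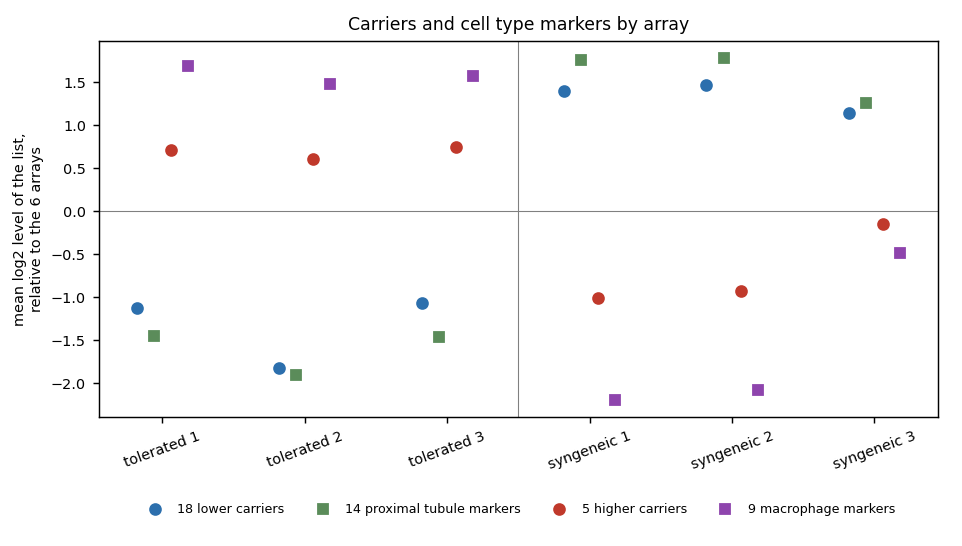
Mean log2 level relative to the 6 arrays (y axis) for the 18 lower carriers, 14 proximal tubule markers, 5 higher carriers and 9 macrophage markers in each array (x axis, tolerated on the left). Syngeneic 3 sits apart from the other syngeneic arrays for the macrophage markers (-0.48, against -2.19 and -2.08) and for the higher carriers (-0.14, against -1.01 and -0.92).

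The brush-border amino acid uptake list had 6 of its 7 tested members lower and none higher, with a median log2 change of -2.26. Slc3a1, the heavy subunit of the apical cystine and dibasic amino acid exchanger whose loss causes cystinuria in humans, had log2 levels of 14.49, 13.37 and 14.46 in tolerated grafts 1, 2 and 3, against 18.28, 18.44 and 18.19 in syngeneic grafts. Every tolerated value lay well under every syngeneic value. Its log2 change was -4.19 ± 0.34 (SE), 18.3-fold lower with a 95% confidence interval of 10.3 to 32.6, at an adjusted p of 0.00363 (limma). The light subunits that pair with it were lower too. Slc7a9, its partner in the cystine exchanger, had log2 levels of 13.02, 11.03 and 11.70 in tolerated grafts, against 14.33, 14.53 and 13.68 in syngeneic grafts. The groups did not overlap, but the spread among tolerated grafts was wide. Its log2 change was -2.26 ± 0.54, 4.80-fold lower (1.90 to 12.1), adjusted p 0.0322. With 1 array left out it passed only without tolerated graft 1 or syngeneic graft 3, and its adjusted p reached 0.102. Slc7a13, which in mouse pairs with Slc3a1 in the late proximal tubule and carries cystine and acidic amino acids, had log2 levels of 14.06, 14.46 and 16.03 in tolerated grafts, against 19.46, 20.41 and 19.55 in syngeneic grafts. No syngeneic value came near a tolerated one. This was the largest change of any member, -4.95 ± 0.57, 31.0-fold lower (11.7 to 82.0), adjusted p 0.00597.

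**Figure D3:**
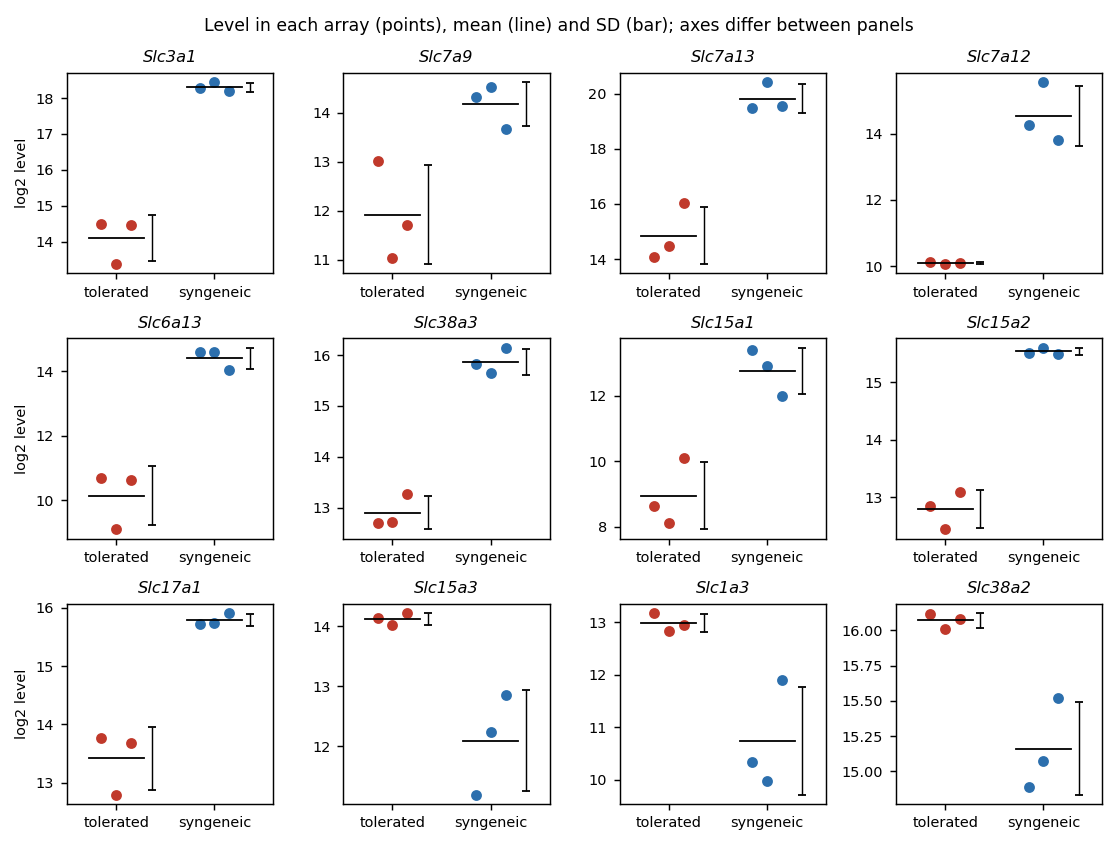
Log2 level of 12 carriers in each array (points), with the group mean (line) and SD (bar, n = 3), tolerated on the left of each panel and syngeneic on the right. The y axes differ between panels. The groups are separated in each of the 12, which were all picked from members that passed, so the separation follows from that choice. Over all tested genes with a single symbol, 55.7% had groups without overlap.

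The remaining apical carriers moved the same way, with 1 exception. Slc6a18, which in mouse takes up glycine and other neutral amino acids with collectrin as partner, had log2 levels of 13.06, 12.24 and 13.33 in tolerated grafts, against 15.53, 15.34 and 15.52 in syngeneic grafts, a change of -2.58 ± 0.31. Slc6a20a, the imino acid carrier that takes up proline, had log2 levels of 11.46, 10.95 and 11.03 in tolerated grafts, against 13.65, 13.41 and 13.04 in syngeneic grafts, a change of -2.22 ± 0.24. Slc1a1, the apical carrier of glutamate and aspartate, had log2 levels of 14.08, 13.97 and 14.22 in tolerated grafts, against 16.02, 16.06 and 15.67 in syngeneic grafts, a change of -1.83 ± 0.18. In all 3 genes the groups lay clear of each other. The adjusted p-values from limma were 0.00618, 0.00524 and 0.00432 in that order. Slc36a2, the proton-coupled carrier of proline and glycine, did not pass (adjusted p 0.0580) and its difference had the other sign. Its log2 levels were 9.64, 11.06 and 10.25 in tolerated grafts, against 8.67, 7.17 and 9.07 in syngeneic grafts, a difference of 2.01 ± 0.60 with no overlap. Without syngeneic graft 3 it passed (adjusted p 0.0486), and it passed in 4 of 9 other ways of processing all 6 arrays.

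Short stretches of promoter sequence are shown for the 3 fallen carriers in which a motif of a proximal tubule transcription factor was found. HNF4 and HNF1 are nuclear factors known to drive many proximal tubule genes, and their part in the carriers' changes was not tested. RefSeq promoter windows of assembly GRCr8, running from 250 bases before to 50 bases after the annotated start, were matched by symbol for 39 of the 51 members and 12 of the 18 lower ones. The letters CAAAGTCCA, searched on both strands for HNF4, occur in 0.391% of all 33469 windows and in 1 of the 39 members, Slc3a1. The letters GTTAAT, searched on both strands as an HNF1 half-site, occur in 7.45% of all windows and in 2 of the 39 members, Slc6a18 and Slc7a12. The other lower members with a window had neither motif. In these windows the matches of the 2 motifs do not overlap, and a match describes the sequence and is not a shown binding site. Each window is printed 5′ to 3′ on the strand of its gene with the match in capitals. The match begins 89 bases before the start in Slc3a1 (chr6:15394700-15394999, minus strand), 119 bases before it in Slc6a18 (chr1:31436403-31436702, plus strand) and 88 bases before it in Slc7a12 (chr2:88868054-88868353, minus strand).
Slc3a1: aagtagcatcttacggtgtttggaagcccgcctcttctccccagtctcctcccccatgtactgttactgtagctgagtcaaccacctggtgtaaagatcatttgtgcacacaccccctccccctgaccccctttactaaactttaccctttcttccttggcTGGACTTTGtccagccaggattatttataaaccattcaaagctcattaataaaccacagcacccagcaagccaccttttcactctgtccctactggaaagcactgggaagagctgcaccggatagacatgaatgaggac
Slc6a18: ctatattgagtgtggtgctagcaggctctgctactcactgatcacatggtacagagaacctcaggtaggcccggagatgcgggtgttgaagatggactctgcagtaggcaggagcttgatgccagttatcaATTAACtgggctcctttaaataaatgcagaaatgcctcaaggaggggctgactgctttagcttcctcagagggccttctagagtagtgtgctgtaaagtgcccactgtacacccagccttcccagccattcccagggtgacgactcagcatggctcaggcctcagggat
Slc7a12: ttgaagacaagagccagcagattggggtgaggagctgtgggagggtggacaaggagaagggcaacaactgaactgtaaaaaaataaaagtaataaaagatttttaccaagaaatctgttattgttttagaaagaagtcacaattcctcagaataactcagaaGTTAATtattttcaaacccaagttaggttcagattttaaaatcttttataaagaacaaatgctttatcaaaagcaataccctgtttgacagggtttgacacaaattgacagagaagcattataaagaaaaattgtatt

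The exchangers and facilitators, most of them basolateral, differed among themselves: of 6 tested, 1 was lower, 1 was higher and 4 did not pass, and the median log2 change was -0.52. Slc7a12, known from mouse as an exchanger of small neutral amino acids, had log2 levels of 10.14, 10.07 and 10.08 in tolerated grafts, against 14.25, 15.55 and 13.80 in syngeneic grafts. The tolerated values were nearly equal and all far under the syngeneic ones. Its change was -4.44 ± 0.45, 21.7-fold lower (10.0 to 46.8), adjusted p 0.00493 by limma. A second, dimmer probe of the gene gave 7.44, 9.44 and 9.17 in tolerated grafts, against 13.40, 14.80 and 12.91 in syngeneic grafts, a change of -5.02 ± 0.71.

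Slc7a5, the exchanger of large neutral amino acids that is abundant in proliferating and activated cells, was the higher one. It had log2 levels of 12.56, 12.45 and 12.72 in tolerated grafts, against 11.60, 11.61 and 11.89 in syngeneic grafts. The groups did not overlap, and the change was 0.88 ± 0.17, 1.83-fold higher (1.38 to 2.44), adjusted p 0.0183. With 1 array left out it passed only without tolerated graft 2 or syngeneic graft 3, with adjusted p-values up to 0.0697. Slc3a2, the heavy subunit shared by Slc7a5, Slc7a7 and Slc7a8, differed by -0.88 ± 0.28 without overlap and did not pass (adjusted p 0.0706). Its log2 levels were 14.53, 14.35 and 14.25 in tolerated grafts, against 15.38, 15.69 and 14.70 in syngeneic grafts. Without syngeneic graft 3 it passed (adjusted p 0.0126), and it passed with arrays scaled to equal medians (-1.19, adjusted p 0.0410). That scaling was 1 of 3 in which it passed, of 9 other ways of processing all 6 arrays.

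The basolateral light subunits of the proximal tubule did not pass. Slc7a7, which releases dibasic amino acids to the blood and is mutated in human lysinuric protein intolerance, had log2 levels of 16.12, 15.48 and 15.42 in tolerated grafts, against 16.51, 16.75 and 15.81 in syngeneic grafts. These ranges overlap, and the difference was -0.68 ± 0.33 (adjusted p 0.179). Slc7a8, an exchanger of neutral amino acids, had log2 levels of 8.51, 7.93 and 8.37 in tolerated grafts, against 7.91, 9.07 and 8.01 in syngeneic grafts. Its difference was -0.06 with a 95% confidence interval of -0.95 to 0.84, so changes of up to that size could have gone unseen. Slc7a10, an exchanger of small neutral amino acids, differed by -0.36 (adjusted p 0.444). The log2 change of the apical heavy subunit Slc3a1 minus that of the basolateral heavy subunit Slc3a2 was -3.31, and the change of Slc7a9 minus that of Slc7a7 was -1.58. The exact two-sided permutation test over samples gave p = 0.1 for both, the smallest it can give with 3 against 3 samples, and these pairs were chosen after their values were seen.

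Among cationic amino acid uniporters only Slc7a1, which takes up arginine and lysine in most cells, passed the filter. It had log2 levels of 11.39, 11.06 and 11.19 in tolerated grafts, against 7.99, 8.88 and 10.43 in syngeneic grafts. The groups did not overlap, but syngeneic graft 3 lay close to the tolerated grafts, and the difference of 2.11 ± 0.61 did not pass (adjusted p 0.0526 by limma). Without syngeneic graft 3 the difference was 2.75 and passed (adjusted p 0.00550). It also passed in 4 of 9 other ways of processing all 6 arrays.

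In the peptide and proton-coupled list, both carriers that take up dipeptides and tripeptides at the apical membrane were lower, and 1 of the endolysosomal carriers was higher. The whole list had 2 lower and 1 higher of 5 tested members, with a median change of -0.15. Slc15a1, the low-affinity apical peptide carrier, had log2 levels of 8.62, 8.12 and 10.11 in tolerated grafts, against 13.40, 12.90 and 11.99 in syngeneic grafts. There was no overlap, and the change was -3.81 ± 0.61, 14.1-fold lower (4.94 to 40.0), adjusted p 0.0125. Without syngeneic graft 2 it no longer passed (adjusted p 0.0525). Slc15a2, the high-affinity apical peptide carrier, had log2 levels of 12.85, 12.44 and 13.09 in tolerated grafts, against 15.51, 15.60 and 15.50 in syngeneic grafts. The syngeneic values were nearly equal, and the change was -2.74 ± 0.21, 6.68-fold lower (4.69 to 9.53), adjusted p 0.00363.

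Slc15a3, an endolysosomal carrier of histidine and peptides known from macrophages and other immune cells, had log2 levels of 14.14, 14.02 and 14.22 in tolerated grafts, against 11.19, 12.24 and 12.85 in syngeneic grafts. All tolerated values were higher, and the change was 2.03 ± 0.42, 4.10-fold higher (1.99 to 8.45), adjusted p 0.0225 by limma. With 1 array left out it passed only without syngeneic graft 1 or syngeneic graft 3, with adjusted p-values up to 0.0737. All 9 macrophage markers were higher in the same grafts, and their part in this change was not tested. The related Slc15a4, also endolysosomal, differed by 0.17 (adjusted p 0.453). Slc36a1, a lysosomal proton-coupled amino acid carrier with a dim probe, differed by -0.15 (adjusted p 0.806). The change of Slc15a2 minus that of Slc15a3 was -4.77 on the log2 scale. Its exact two-sided permutation p was again 0.1, the smallest possible, for a pair chosen after its values were seen.

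The Slc38 carriers of neutral amino acids had 1 higher and 2 lower of 5 tested members. Slc38a3, which brings glutamine from the blood into the late proximal tubule for ammonia production, had log2 levels of 12.71, 12.71 and 13.28 in tolerated grafts, against 15.82, 15.65 and 16.15 in syngeneic grafts. The groups were far apart, with a change of -2.97 ± 0.24, 7.85-fold lower (5.23 to 11.8), adjusted p 0.00363 by limma. Slc38a2, a widely expressed carrier known to be induced when amino acids are scarce or tonicity is high, had log2 levels of 16.12, 16.01 and 16.08 in tolerated grafts, against 14.89, 15.08 and 15.52 in syngeneic grafts. Its change was 0.91 ± 0.21, 1.88-fold higher (1.32 to 2.68), adjusted p 0.0283, with no overlap. With arrays scaled to equal medians it was 0.55 and did not pass (adjusted p 0.153), and with 1 array left out it passed only without syngeneic graft 3 (adjusted p up to 0.0940).

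Slc38a5, a carrier of glutamine and other neutral amino acids, was dim. It had log2 levels of 7.83, 7.32 and 7.69 in tolerated grafts, against 8.50, 8.39 and 8.29 in syngeneic grafts, and its change of -0.78 ± 0.19 (adjusted p 0.0340) passed only without syngeneic graft 3 when 1 array was left out. The tolerated mean lay under the filter level, so the size of this change rests on a dim signal. It did not pass with no filter (adjusted p 0.0598) or with trended and robust moderation (adjusted p 0.171). Slc38a1 and Slc38a4, which take up neutral amino acids, did not pass. Slc38a1 had log2 levels of 9.66, 9.86 and 9.12 in tolerated grafts, against 7.36, 6.63 and 9.16 in syngeneic grafts (1.83 ± 0.66, adjusted p 0.0951). Slc38a4 had log2 levels of 9.37, 10.24 and 9.12 in tolerated grafts, against 9.29, 5.42 and 7.93 in syngeneic grafts (2.03 ± 0.98, adjusted p 0.186). Their syngeneic values were scattered and overlapped the tolerated range. Without syngeneic graft 3 the difference of Slc38a1 was 2.56 and passed (adjusted p 0.00829). Slc38a1, Slc38a2 and Slc38a4 follow each other on chromosome 7 in the GRCr8 annotation.

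Of the Slc1 carriers other than Slc1a1, both that were tested were higher. Slc1a3, a sodium-dependent glutamate and aspartate carrier best known from glia, had log2 levels of 13.18, 12.83 and 12.94 in tolerated grafts, against 10.35, 9.97 and 11.90 in syngeneic grafts. The change of 2.24 ± 0.51, 4.73-fold higher (1.98 to 11.3), adjusted p 0.0285, was the largest increase of any member that passed. The tolerated values lay close together and above all syngeneic values, of which graft 3 was the highest. Slc1a5, the glutamine and neutral amino acid exchanger of many dividing cells, had log2 levels of 14.61, 14.76 and 14.81 in tolerated grafts, against 13.95, 13.51 and 14.15 in syngeneic grafts. Its change was 0.85 ± 0.21, 1.81-fold higher (1.26 to 2.59), adjusted p 0.0347, with no overlap. A second, dimmer probe of Slc1a5 did not show it, with a difference of 0.10 ± 0.44, and the mean of both probes gave 0.48 (adjusted p 0.258). With arrays scaled to equal medians the brighter probe gave 0.61 and did not pass (adjusted p 0.133), nor did it with no filter on dim probes (0.0583). Slc1a3 and Slc1a5 passed only without syngeneic graft 3 when 1 array was left out, with adjusted p-values up to 0.0904 and 0.107.

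Both tested Slc17 carriers of urate and organic anions were lower by nearly the same amount. Slc17a1 had log2 levels of 13.77, 12.79 and 13.69 in tolerated grafts, against 15.72, 15.75 and 15.91 in syngeneic grafts, a change of -2.38 ± 0.30, 5.19-fold lower (3.14 to 8.58), adjusted p 0.00663. Slc17a3 had log2 levels of 12.91, 11.61 and 12.80 in tolerated grafts, against 14.81, 14.75 and 14.89 in syngeneic grafts, a change of -2.38 ± 0.37, 5.20-fold lower (2.77 to 9.75), adjusted p 0.0113. Both are known as apical carriers of the proximal tubule and lie next to each other on chromosome 17 in the GRCr8 annotation. In both, tolerated graft 2 was the lowest array and the syngeneic arrays were nearly equal.

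The carriers of osmolytes, GABA and creatine had 2 lower and no higher of 4 tested members. Slc6a13, a carrier of GABA, taurine and betaine in the basolateral membrane of the proximal tubule, had log2 levels of 10.70, 9.10 and 10.65 in tolerated grafts, against 14.60, 14.59 and 14.03 in syngeneic grafts. There was a wide gap between the groups, with a change of -4.26 ± 0.48, 19.1-fold lower (8.47 to 43.2), adjusted p 0.00573 by limma. Slc6a8, the creatine carrier, had log2 levels of 14.15, 13.65 and 13.80 in tolerated grafts, against 14.79, 15.32 and 14.95 in syngeneic grafts, a change of -1.16 ± 0.22 (adjusted p 0.0184). It did not pass without tolerated graft 2, tolerated graft 3 or syngeneic graft 2, with adjusted p-values up to 0.0656. Slc6a6, the taurine carrier, had overlapping log2 levels of 11.48, 11.15 and 12.35 in tolerated grafts, against 11.80, 12.49 and 10.63 in syngeneic grafts, a difference of 0.02 ± 0.55. Slc6a11, a GABA carrier with a dim probe, differed by 0.19 (adjusted p 0.714).

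Many of the neuronal and vesicular carriers were dim. Of 14 with a named probe 7 passed the filter and were tested, and 3 of these were lower. For Slc18a1 and Slc6a4, 2 of the 3, the tolerated means lay under the filter level, so they were tested only through their syngeneic levels. Slc17a8, a vesicular glutamate carrier, had log2 levels of 9.60, 9.31 and 9.14 in tolerated grafts, against 11.01, 10.55 and 10.79 in syngeneic grafts, a change of -1.43 ± 0.20 (adjusted p 0.00937) with no overlap. Slc18a1, a vesicular monoamine carrier of endocrine cells, had log2 levels of 7.46, 6.60 and 7.81 in tolerated grafts, against 8.93, 9.78 and 9.08 in syngeneic grafts, a change of -1.97 ± 0.39 (adjusted p 0.0196). Slc6a4, the serotonin carrier, had log2 levels of 7.96, 6.53 and 6.86 in tolerated grafts, against 9.61, 8.45 and 8.56 in syngeneic grafts, a change of -1.76 ± 0.49 (adjusted p 0.0481). The sizes of the last 2 changes rest on a dim signal. Slc18a1 did not pass without tolerated graft 1 or syngeneic graft 2 (adjusted p up to 0.0612). Slc6a4 did not pass without tolerated graft 2 or 3 or syngeneic graft 2 or 3 (adjusted p up to 0.134), was not tested without syngeneic graft 1, and did not pass with no filter on dim probes (adjusted p 0.0666).

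The other 4 tested neuronal and vesicular carriers did not pass. Slc6a7, a brain proline carrier, differed by -0.95 ± 0.28 without overlap (adjusted p 0.0567), and Slc6a9, a glycine carrier, by 0.46 ± 0.15 without overlap (adjusted p 0.0725). Slc6a7 passed without tolerated graft 2 (-1.23, adjusted p 0.0412) and Slc6a9 without syngeneic graft 3 (0.52, adjusted p 0.0480). Each also passed in 1 of 9 other ways of processing all 6 arrays, the filter at the median. Slc32a1, the vesicular carrier of GABA and glycine, had log2 levels of 11.87, 11.99 and 11.29 in tolerated grafts, against 12.53, 11.60 and 11.22 in syngeneic grafts, a difference of -0.07 (adjusted p 0.911). Slc17a7, a vesicular glutamate carrier with a dim probe, differed by -0.11 (adjusted p 0.894). Of 9 tested nerve markers, Uchl1 was higher (1.94) and Nefm lower (-4.55), with a list median of 0.57 (0.24 without syngeneic graft 1), and the mean nerve level lay between 0.08 and 0.09 in tolerated grafts and between -0.34 and 0.14 in syngeneic grafts. Uchl1 no longer passed without tolerated graft 1 or 2 or without syngeneic graft 1 or 2 (adjusted p up to 0.0654), while Nefm passed in every such fit. The nerve markers thus had members in both directions, and their part in the carriers' changes was not tested.

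The 12 members that were not tested were Slc7a2, Slc7a3, Slc1a2, Slc1a4, Slc1a6, Slc17a6, Slc18a2, Slc18a3, Slc6a15, Slc6a2, Slc6a3 and Slc6a5. Most are carriers of nerve cells. Their mean log2 levels over the 6 arrays lay between 6.64 and 7.70, and single values between 5.36 and 9.99. With the filter left out, none passed (the smallest adjusted p was 0.0748, for Slc1a2, the main glutamate carrier of brain, with a difference of 0.69). Slc18a2, the monoamine carrier of nerve vesicles, had log2 levels of 6.27, 6.23 and 7.86 in tolerated grafts, against 7.28, 6.37 and 6.56 in syngeneic grafts, which overlap. Changes of carriers this dim are not described further.

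**Figure D4:**
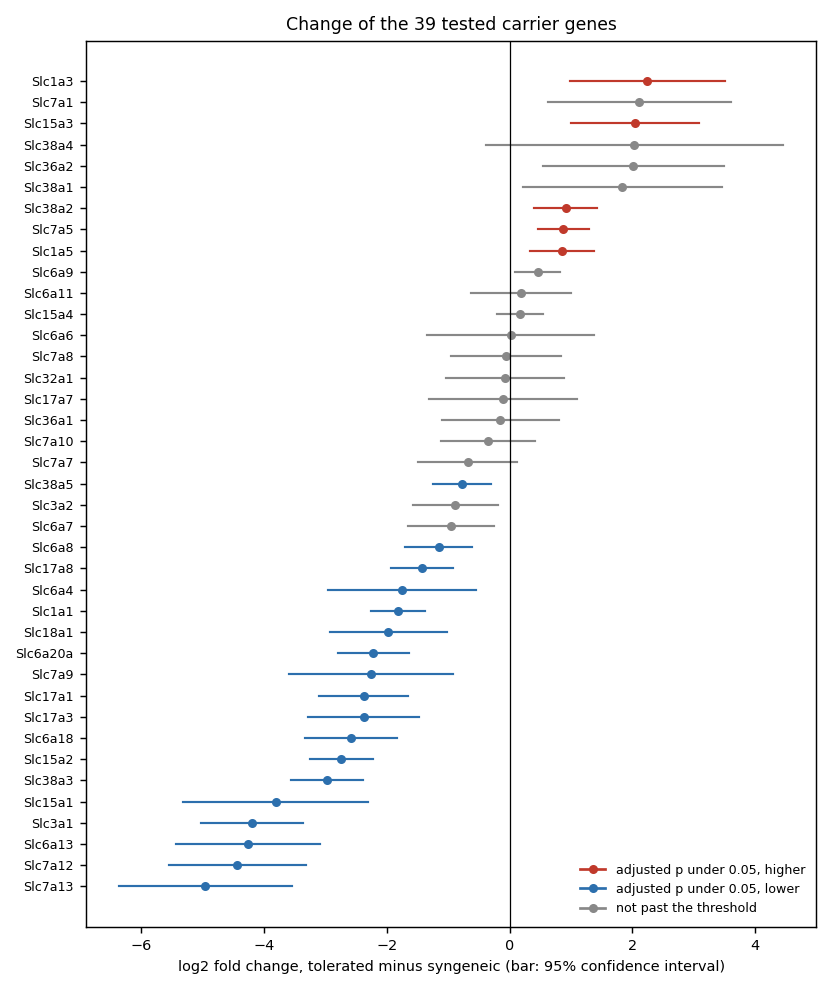
Log2 fold change (x axis, tolerated minus syngeneic) of the 39 tested carriers (rows), with 95% confidence intervals as bars. The 18 lower members run from -4.95 (Slc7a13) to -0.78 (Slc38a5) and the 5 higher members from 0.85 (Slc1a5) to 2.24 (Slc1a3), while members that did not pass are grey.

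Other genes of the same pathways were described by lists. Of 11 brush-border partners, 10 were lower and none was higher, with a median change of -2.48. Anpep, an aminopeptidase that releases amino acids from peptides at the brush border, had log2 levels of 13.46, 12.72 and 13.74 in tolerated grafts, against 16.73, 16.83 and 16.93 in syngeneic grafts (-3.53 ± 0.29, adjusted p 0.00380). Hnf4a, which encodes an HNF4 nuclear factor, averaged 10.94 ± 0.54 in tolerated grafts and 13.95 ± 0.32 in syngeneic grafts (SD, n = 3 each, change -3.01 ± 0.33, limma adjusted p 0.00537). Pdzk1, a scaffold of apical carriers, changed by -2.97, and Cltrn, the collectrin that partners Slc6a18 in mouse, by -2.85. The partner that did not pass was Slc16a10, a basolateral carrier of aromatic amino acids (0.53, adjusted p 0.170). With 1 array left out, between 7 and 10 of the 11 were lower, and Anpep, Hnf4a, Pdzk1 and Cltrn passed in every such fit.

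Of 11 genes of ammonia production and glutamine and arginine handling, 9 were lower and none was higher, with a median change of -2.04. Pck1, the gluconeogenic enzyme that uses the carbon of glutamine, changed by -5.42, Gatm, the first enzyme of creatine synthesis, by -2.80, Ass1, an enzyme of renal arginine synthesis, by -2.50, and Glul, glutamine synthetase, by -2.09. These moved beside the lower glutamine carrier Slc38a3 and creatine carrier Slc6a8. Gatm no longer passed without tolerated graft 2 or without tolerated graft 3, and between 6 and 10 of the 11 were lower with 1 array left out.

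The list of genes induced by amino acid shortage through Atf4, which is known also to drive Slc7a5, Slc38a2 and Slc1a5, had no common direction, with 4 higher and 4 lower of 14 tested and a median of 0.57 (0.35 without tolerated graft 1 and 0.36 without syngeneic graft 1). Psat1, an enzyme of serine synthesis, changed by -2.37, Eif4ebp1, an inhibitor of translation, by 1.90, Nupr1, a stress-induced nuclear protein, by 1.71, and Shmt2, a mitochondrial serine enzyme, by -1.67. Eif4ebp1 no longer passed without syngeneic graft 2, and without that array only 1 of the list was higher and 2 were lower. Of 9 genes of glutathione synthesis and the Nrf2 response, 3 were lower, all of them enzymes of glutathione synthesis (Gclc -4.26, Gss -2.68 and Gclm -2.51). The heme-degrading Hmox1 was higher (1.02), but it passed in none of the fits that left out 1 array. Of 4 tonicity genes, Akr1b1, the sorbitol-making enzyme, was higher (0.90). It no longer passed without any 1 of the tolerated arrays or without syngeneic graft 1. Slc6a6, also known as a tonicity-regulated gene, differed by 0.02 as given above.

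The calls were repeated with 1 array left out at a time. Of the 23 members that passed, 12 passed in all such fits, and all 12 were lower: Slc7a13, Slc7a12, Slc6a13, Slc3a1, Slc38a3, Slc15a2, Slc6a18, Slc17a3, Slc17a1, Slc6a20a, Slc1a1 and Slc17a8. None of the 5 higher members did. The share of all probes that passed in every such fit is not given here, so these counts stand without a background. Without syngeneic graft 3, 9 members were higher and 18 lower. The 9 included Slc38a1, whose syngeneic mean lay under the filter level with all 6 arrays. Without syngeneic graft 2, none was higher and 12 were lower. The number of higher members was also 0 without tolerated graft 1 or 3 and 1 without tolerated graft 2 or syngeneic graft 1, and in those fits 14 to 16 were lower. The number of probes that passed was 1610 to 2152 in these 5 fits, against 5075 with all 6 arrays and 6046 without syngeneic graft 3. The cause of these differences was not tested. All 23 kept their sign in every fit that tested them.

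**Figure D5:**
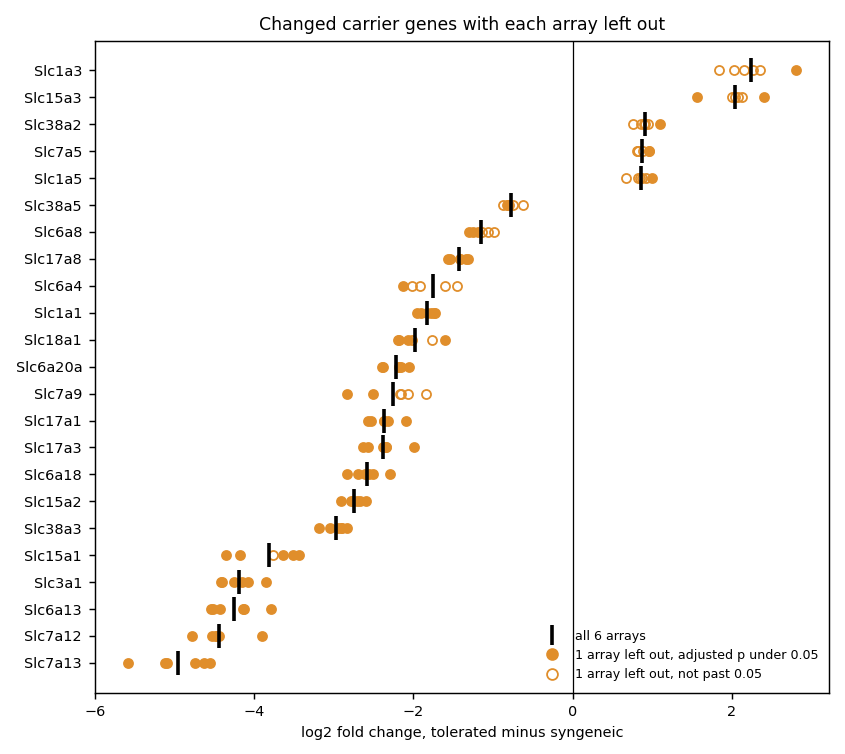
Log2 fold change (x axis, tolerated minus syngeneic) of the 23 members that passed (rows) with all 6 arrays (black bar) and with each array left out in turn (circles, filled where the adjusted p stayed under 0.05). Circles stay on 1 side of 0 for every member, and rows with every circle filled are 12 lower members.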

How the data were processed

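The deposited files hold raw intensity for 26857 probes on 6 arrays and, as a series matrix, the authors' log2 values of the same arrays. Every deposited column belonged to a sample (0 others). The deposited log2 columns shared 1 median, 9.36, and had a rank correlation of 1 with the raw intensity of their sample. How they were made, and the scanner software, background subtraction and detection calls, are not stated in the labels or file headers. Total RNA was extracted with TRIzol and 0.5 µg was labelled with digoxigenin, per the labels' protocols.

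From the raw intensities, log2 values were taken with no further background correction and quantile normalized over the 6 arrays. The raw array medians were 760, 745.1 and 991.1 in tolerated grafts, against 421.4, 538.1 and 706.8 in syngeneic grafts. Every tolerated array was thus brighter than every syngeneic array before normalization. Probes with a mean log2 level at or under the lower quartile (7.76) were removed, leaving 20142 of 26857. Levels are log2 values after this normalization, and levels of different probes were not compared. The precision is limited by 3 arrays a group, and in no pair of arrays did more than 0.00745% of probes have exactly the same raw value as deposited (no tolerance). The main test was a linear model without covariates over all 6 arrays (limma 3.58.1, R 4.3.3, with eBayes moderation), read as tolerated minus syngeneic. The p-values of the 20142 probes were adjusted together by Benjamini-Hochberg, with a threshold of 0.05. The fit was tested on simulated data. Symbols came from the platform annotation, where 6104 probes had 1 symbol, 70 several and 20683 none listed, and 6081 of the 6104 were matched by Entrez identifier to the RefSeq table of GRCr8. A gene with no named probe may still lie on the array.

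The members, role lists, pathway lists and marker lists were chosen with earlier results of these data known, so their counts are descriptions beside the background and no list was tested. Values in all arrays are given for members past the threshold and for a set of carriers named whatever their value. Of each pathway list up to 4 genes past the threshold with the largest changes are named, and of each marker list up to 3. Slc16a10, which is not a member, is named outside this rule, after its values were seen. The array values of Slc36a2, Slc7a1, Slc38a1 and Slc38a4 are also given outside it, after they were seen. Each of these members did not pass and had a positive difference. Alternatives were equal-median scaling, the deposited log2 values, normexp correction, a constant of 50, no filter or a filter at the median, the mean of a gene's probes, trended and robust moderation, a replicate block and leaving out each array.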

Additional observations from a re-analysis of the deposited data

How the results depend on the processing

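All 23 members that passed kept their direction under every alternative that tested them. The number of lower members was 16 to 19 under the alternatives that kept all 6 arrays without a replicate block, and the number of higher members 4 to 8. With a filter at the median 30 members were tested, 8 were higher, and the members' median change was -1.06. It was -0.20 with no filter (51 tested) and -1.04 with arrays scaled to equal medians, where the median of all probes was -0.15, beside -0.78 in the report. The Slc38 median was -1.03 with the filter at the median, where 2 genes were left, and 0.91 in the report. The median of the cationic uniporters was -0.061 with no filter, where 3 genes were tested, and 2.11 for the 1 gene in the report. With 1 array left out, 0 to 9 members were higher and 12 to 18 lower, the members' median lay between -0.89 and -0.57, and 1610 to 6046 probes passed. The labels do not say whether samples of the same number are paired. Deviations of same-numbered samples had correlations of -0.0023, 0.0112 and 0.0538, and 3 of 6 samples correlate best with their own number. These values cannot exclude a batch shared by samples of the same number. With the number as a replicate block, 0 members were higher (limma; 5 without it), 13 were lower and 1886 probes passed. Some of these alternatives use other numbers of genes or fewer arrays, and the cause of the differences was not tested. Dim probes and the 3 arrays a group limit what could be seen, and quantile normalization would hide a change in total RNA.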
